A study of Mus musculus with 3 samples.

Results

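The genes described are Yap1 and Wwtr1 (which encodes TAZ), the 4 TEAD genes, the kinase genes Lats1 and Lats2, and the angiomotin-like genes Amotl1 and Amotl2, in endothelial cells (ECs) of the adult mouse lung. Members were taken by symbol, and all 10 have a row among the 24346 gene symbols of the deposited table. The cells came from male C57BL/6J mice of wild type genotype, 6 to 8 weeks of age, which carried no transgene and received no treatment beyond an antibody to VE-cadherin injected before death to label perfused vessels. ECs were sorted fresh from the lung, without culture, as CD31+ cells free of CD45 and Podoplanin. Poly-A RNA of 3 libraries, S38, S44 and S52, was read as unstranded pairs of 51 bases, and expression was deposited as FPKM (fragment counts divided by gene length and library size), a scale on which levels of different genes can be set side by side. With 1 condition there was no contrast between groups, so levels, their order, and their spread between libraries are given. The labels do not say whether the libraries came from separate animals, so the spread may be technical.

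YAP and TAZ are transcriptional coactivators at the end of the Hippo pathway. They do not bind DNA themselves and reach their target genes through the TEAD factors. LATS kinases, which are activated by MST kinases, phosphorylate YAP and TAZ, and the phosphorylated proteins are held in the cytoplasm by phosphoserine-binding proteins or degraded. Angiomotin-like proteins sit at endothelial junctions and on actin filaments, where they bind YAP and TAZ and can promote LATS activity. In blood vessels YAP and TAZ are known for their part in sprouting and in responses to flow and stretch. Because the pathway acts through phosphorylation and location of proteins, RNA levels measure which components are transcribed and not how active the pathway is.

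TEAD factors bind the 6 bases GGAATG, read on either strand (CATTCC on the other). RefSeq promoters of GRCm38.p6, each 300 bases long from 250 before to 50 after an annotated start, were given for 8 members (not for Tead1 or Tead4), and 5 of these 8 genes hold the motif in at least 1 of their windows (7 of 12 windows). Over all 27025 genes with a promoter the share was 16.6%, and over all 32851 windows it was 14.7%. The stretches printed are those in which the coactivators, a TEAD gene, a kinase gene and the member with the highest mean carry the letters that TEAD proteins recognise, with the motif in capitals and the strand of the gene read 5′ to 3′. The promoter of Cyr61 (also named Ccn1), a classical YAP target, is shown beside them.
Yap1 promoter, GRCm38.p6 chr9:8004597-8004756, minus strand: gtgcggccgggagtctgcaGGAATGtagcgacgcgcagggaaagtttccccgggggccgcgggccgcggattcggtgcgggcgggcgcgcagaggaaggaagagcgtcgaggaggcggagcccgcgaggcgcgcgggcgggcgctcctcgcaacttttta
Wwtr1 promoter, GRCm38.p6 chr3:57575911-57576070, minus strand: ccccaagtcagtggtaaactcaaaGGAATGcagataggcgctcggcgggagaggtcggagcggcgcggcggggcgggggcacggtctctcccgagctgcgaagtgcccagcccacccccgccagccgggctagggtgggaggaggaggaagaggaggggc
Cyr61 promoter, GRCm38.p6 chr3:145649986-145650145, minus strand: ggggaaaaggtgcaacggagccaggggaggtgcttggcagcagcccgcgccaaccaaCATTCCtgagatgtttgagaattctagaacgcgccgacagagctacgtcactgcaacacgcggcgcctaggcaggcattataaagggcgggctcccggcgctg
Amotl2, around its motif, GRCm38.p6 chr9:102717729-102717758, plus strand: gaaactctcaCATTCCtggcatagcagccg
Tead3, around a pair of motifs, GRCm38.p6 chr17:28350704-28350733, minus strand: cggccgggctCATTCCgtaCATTCCggcca
Lats2, around its motif, GRCm38.p6 chr14:57746100-57746129, minus strand: tgacgcccgtGGAATGccaacaatgtagcg

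The first base of the motif lies at position -141 from the start site in Yap1 and at -136 in Wwtr1, in the same orientation in both. In Cyr61 it lies at -103 and in Amotl2 at -65, both in the reverse orientation. Of the 3 annotated starts of Tead3, the first has a motif at -182 and the second has motifs at -123, -114 and 3. The motif of Lats2 begins at base 5 of the transcript, on 1 of its 2 starts. Counting sites once where windows of the same gene overlap, the member promoters hold 8 motifs, 4 of them in Tead3. The windows of Tead2, Lats1 and Amotl1 do not contain these letters. Among genes of a YAP target signature, 5 of the 13 with a promoter hold the motif. A match of letters is no evidence of binding, and binding was not measured here.

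**Figure D1:**
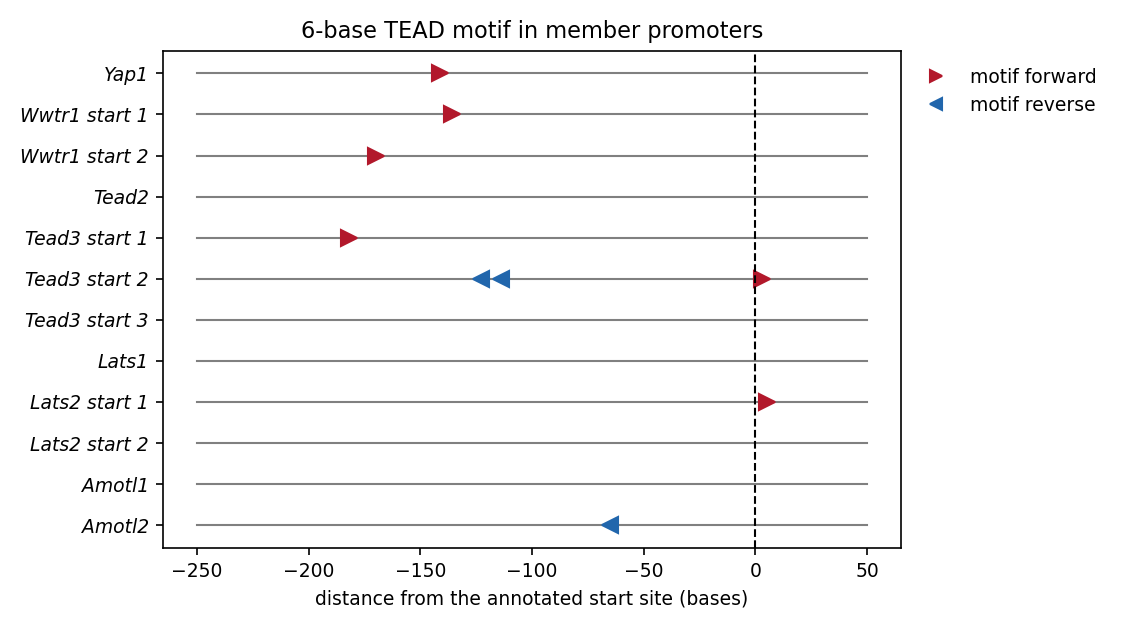
Positions of the 6-base TEAD motif in the promoters of 8 members. Each line is a window of 300 bases, the x axis is the distance in bases from the annotated start site, and arrowheads mark the first base of each motif and its orientation. The motif of the 2 Wwtr1 windows is the same site, and windows of Tead2, Lats1 and Amotl1 are empty.

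Transcripts of every member were detected in the sorted EC fraction of the adult lung. All 10 had a mean of at least 1 FPKM, which 48.3% of all genes of the table reached, and all 10 also reached it in each library. The mean of Tead1 lay near this threshold and was 0.885 once each library was rescaled to a sum of 1000000. A mean of at least 10 FPKM was reached by 6 members (Amotl2, Wwtr1, Lats2, Yap1, Amotl1 and Tead2), and by 25.7% of all genes. The median of the 10 means was 17.3 FPKM, beside 0.784 FPKM over all genes and 11.2 FPKM over the 11770 detected genes, those with a mean of at least 1 FPKM. In a sorted bulk sample, fewer cells that express a gene and less RNA of it per cell cannot be told apart. Nor can RNA of ECs be told apart from RNA of other cells in the sample.

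**Figure D2:**
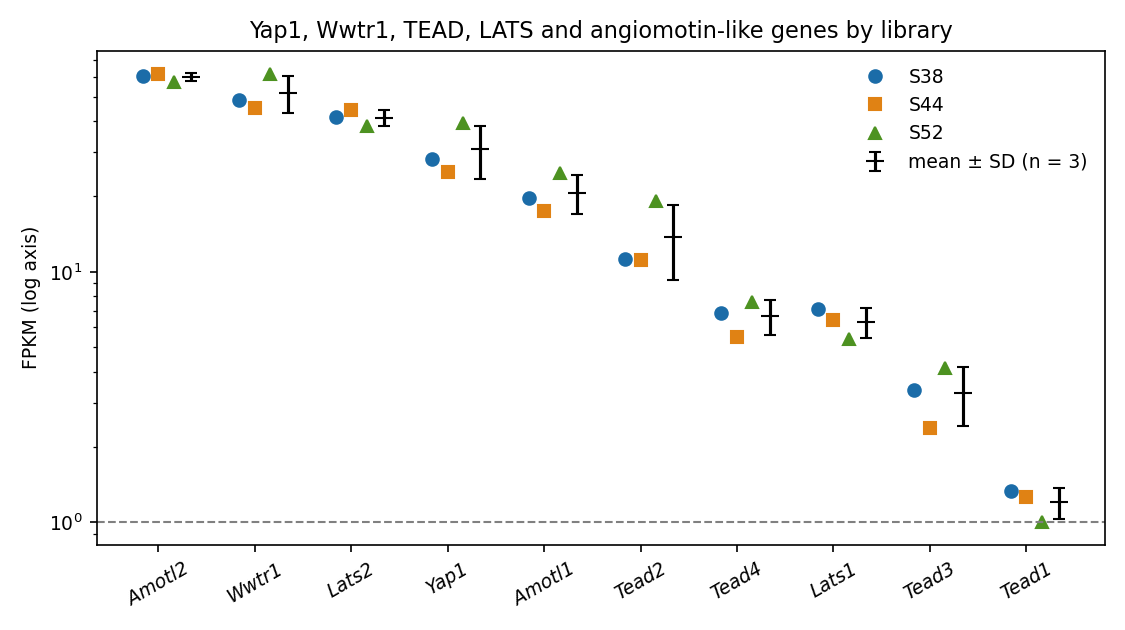
FPKM (log axis) of the 10 members in libraries S38, S44 and S52, in order of their mean, with the mean and SD of the 3 libraries beside the points and a dashed line at 1 FPKM. Means run from 59.8 FPKM for Amotl2 to 1.20 FPKM for Tead1, and S52 is the highest library for 6 members.

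Both coactivators were among the more abundant transcripts, with TAZ above YAP. Wwtr1 (ENSMUSG00000027803.14, GRCm38 chr3:57455649-57575910, minus strand) was at 48.6 (S38), 44.9 (S44) and 61.4 FPKM (S52), a mean of 51.7 ± 8.66 FPKM (SD, n = 3). Yap1 (ENSMUSG00000053110.13, GRCm38 chr9:7931999-8004596, minus strand) was at 28.2 (S38), 25.0 (S44) and 39.2 FPKM (S52), a mean of 30.8 ± 7.44 FPKM. Both genes were lowest in S44 and highest in S52, and their ranges did not overlap, the lowest Wwtr1 value being above the highest Yap1 value. Yap1 shares 116 exonic bases with Gm20416, a gene model on the opposite strand that has no row in the table, and 1.297% of its windows of read length occur in other genes, which unstranded reads cannot tell apart. By its mean Wwtr1 ranked above 93.1% of the genes of the table and Yap1 above 88.6%.

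Within a library the FPKM of Wwtr1 was higher than that of Yap1 by a factor of 1.72 (S38), 1.80 (S44) and 1.57 (S52). On the log2(FPKM + 1) scale the mean difference was 0.74 ± 0.095 (SD, n = 3), with Wwtr1 higher in 3 of 3 libraries. The exact two-sided sign-flip permutation test gave p = 0.25 (Benjamini-Hochberg adjusted p = 0.25 over 6 paralogue pairs), the smallest value that 3 libraries allow, so no pair could pass a threshold of 0.05. Wwtr1 made up 63.2% of the summed coactivator FPKM in S38, 64.2% in S44 and 61.0% in S52, a share that varied less between libraries than either gene did.

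The TEAD genes were lower than the coactivators and spread over a wide range of levels. Tead2 was at 11.3 (S38), 11.1 (S44) and 19.1 FPKM (S52), with a mean of 13.8 ± 4.58 FPKM, n = 3. Tead4 was at 6.87, 5.52 and 7.56 FPKM in the same order of libraries (mean 6.65 ± 1.04 FPKM). All Tead2 values lay above all Tead4 values, and both genes were lowest in S44 and highest in S52. Tead3 was at 3.39 (S38), 2.38 (S44) and 4.11 FPKM (S52), with a mean of 3.29 ± 0.872 FPKM. Tead1 was the lowest member, at 1.34 (S38), 1.26 (S44) and 1.01 FPKM (S52), with a mean of 1.20 ± 0.175 FPKM, and was the TEAD gene that was lowest, not highest, in S52. The 4 genes kept the same order in each library, and no neighbouring pair of them overlapped.

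Tead2 held 49.3% of the summed TEAD FPKM in S38, 54.8% in S44 and 60.1% in S52 (mean 54.7 ± 5.42%, n = 3). Tead4 held 30.1%, 27.2% and 23.8% (mean 27.0 ± 3.14%), and Tead3 held 14.8%, 11.7% and 12.9% (mean 13.2 ± 1.55%). Tead1 held 5.86%, 6.23% and 3.16% (mean 5.08 ± 1.67%). Tead2 and Tead4 together thus carried most TEAD transcripts in each library, and the ranges of the shares of Tead2, Tead4, Tead3 and Tead1 did not overlap. Against Tead1, the FPKM of Tead2 was 8.41 times as high in S38, 8.80 times in S44 and 19.0 times in S52. The corresponding mean difference in log2(FPKM + 1) was 2.71 ± 0.53 for Tead2, 1.79 ± 0.29 for Tead4 and 0.95 ± 0.39 for Tead3, each higher than Tead1 in 3 of 3 libraries (exact sign-flip permutation test, p = 0.25, adjusted p = 0.25). The pseudocount of 1 shrinks differences of low genes, and without it the Tead3 to Tead1 difference was 1.43.

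The level of Tead1 depends most on how fragments were assigned to transcripts. Tead1 (ENSMUSG00000055320.17, GRCm38 chr7:112679318-112906807, plus strand) has 9 coding transcripts in the basic GENCODE M21 set, from 1074 to 9964 bases long, more than any other member. At an estimated depth of 33900000 to 38900000 fragments per library, its value in S52 corresponds to 31 fragments if the shortest transcript were the one used and 334 if the longest. The Tead3 value in S44 corresponds to 131 to 242 fragments by the same estimate, and the Tead2 value there to 773 to 1399. Tead2 (GRCm38 chr7:45215753-45233644, plus strand) shares 13 exonic bases with Cd37, a leukocyte gene on the opposite strand that was at 7.20 (S38), 6.15 (S44) and 1.04 FPKM (S52). Cd37 was lowest in S52, where Tead2 was highest, and the part of Cd37 reads in the Tead2 value was not tested. Tead3 (GRCm38 chr17:28331671-28350817, minus strand) and Tead4 (GRCm38 chr6:128224288-128300823, minus strand) have 9 stretches of read length in common, 0.130% of the Tead3 windows and 0.244% of the Tead4 windows.

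The summed coactivators exceeded the summed TEAD genes by a similar factor in each library. Yap1 and Wwtr1 summed to 76.8 (S38), 70.0 (S44) and 101 FPKM (S52), and the TEAD genes to 22.9, 20.3 and 31.8 FPKM. Both sums were lowest in S44 and highest in S52, while their ratio was 3.36 (S38), 3.45 (S44) and 3.17 (S52), with a mean of 3.33 ± 0.146, n = 3.

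**Figure D3:**
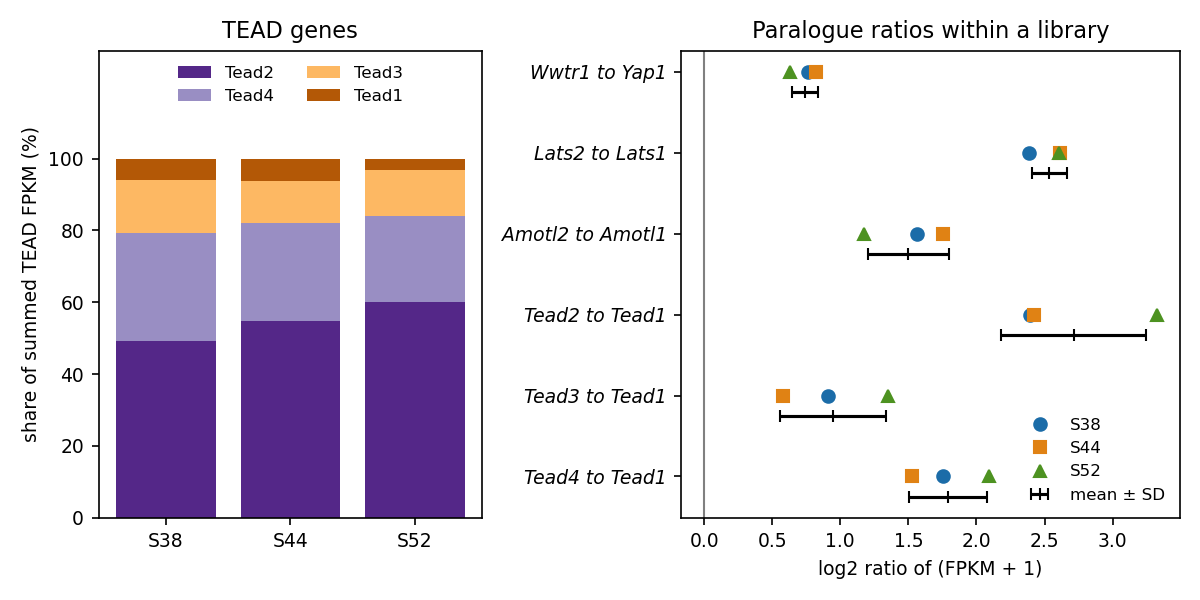
Left, stacked share (%) of each TEAD gene in the summed TEAD FPKM of each library. Right, log2 ratio of (FPKM + 1) between paralogues, with a point for each library and the mean and SD of 3 libraries under the points. Tead2 holds 49.3% to 60.1% of the TEAD sum, and all ratios lie above 0.

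Of the LATS kinases, Lats2 was the main transcript. Lats2 (ENSMUSG00000021959.16, GRCm38 chr14:57689662-57758388, minus strand) was at 41.5 (S38), 44.3 (S44) and 38.1 FPKM (S52), with a mean of 41.3 ± 3.12 FPKM, n = 3. Lats1 (ENSMUSG00000040021.13, GRCm38 chr10:7681214-7716460, plus strand) was at 7.13 (S38), 6.41 (S44) and 5.40 FPKM (S52), with a mean of 6.31 ± 0.866 FPKM. Both kinase genes were lowest in S52, and their ranges lay far apart. Lats2 made up 85.4% of the LATS sum in S38, 87.4% in S44 and 87.6% in S52. The mean difference in log2(FPKM + 1) was 2.54 ± 0.13, with Lats2 higher in 3 of 3 libraries (exact sign-flip permutation test, p = 0.25, adjusted p = 0.25). Lats2 shares 2955 exonic bases with Gm49361, a gene model on the same strand that has no row in the table, and 41.2% of its windows of read length occur in that model too. Reads of these 2 models cannot be told apart in the shared part, so the Lats2 value may contain both. Lats2 has 4 coding transcripts in the basic GENCODE M21 set, from 786 to 5191 bases long. By the estimated depth, its value in S38 corresponds to 988 fragments for the shortest and 7939 for the longest. Its level, and its excess over Lats1, thus depend on the transcript lengths assumed.

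Of the angiomotin-like genes, Amotl2 had the highest mean of all members, although Wwtr1 was above it in S52. Amotl2 (ENSMUSG00000032531.15, GRCm38 chr9:102716672-102733418, plus strand) was at 60.4 (S38), 61.7 (S44) and 57.3 FPKM (S52), with a mean of 59.8 ± 2.26 FPKM, n = 3, above 94.1% of the genes of the table. Its highest library was 1.08 times its lowest, the smallest such ratio among the members, and 4.39% of detected genes had a smaller ratio. With each library rescaled to a sum of 1000000 the ratio was 1.36, and that of Lats2, 1.34, was smaller. Amotl1 (ENSMUSG00000013076.17, GRCm38 chr9:14541966-14645056, minus strand) was at 19.8 (S38), 17.6 (S44) and 24.8 FPKM (S52), with a mean of 20.7 ± 3.72 FPKM. Amotl1 was highest in S52 and Amotl2 lowest there, and their ranges did not overlap. Their sum was 80.2 (S38), 79.2 (S44) and 82.1 FPKM (S52). The FPKM of Amotl2 exceeded that of Amotl1 by a factor of 3.06 (S38), 3.51 (S44) and 2.31 (S52), a mean difference in log2(FPKM + 1) of 1.499 ± 0.30 (exact sign-flip permutation test, p = 0.25, adjusted p = 0.25). Amot, the founding member of the family, was taken with the junction regulators and was at 2.38, 1.58 and 3.46 FPKM, below both paralogues in each library.

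By mean the members ran from Amotl2 through Wwtr1, Lats2, Yap1, Amotl1, Tead2, Tead4, Lats1 and Tead3 to Tead1. Of the 9 neighbouring pairs in this order, 5 had ranges that did not overlap, namely Wwtr1 and Lats2, Yap1 and Amotl1, Tead2 and Tead4, Lats1 and Tead3, and Tead3 and Tead1. The gap was narrow for the first pair, 44.9 against 44.3 FPKM, and for the second, 25.0 against 24.8 FPKM. Amotl1 was above Tead2 in 3 of 3 libraries although their ranges overlapped. Amotl2 and Wwtr1, Lats2 and Yap1, and Tead4 and Lats1 changed places between libraries, so these neighbours did not differ beyond their spread. Without S52, 8 of the 9 neighbouring pairs did not overlap, and with each library rescaled to the same sum 3 did not.

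In the values as deposited, the spread of the members between libraries was close to that of other genes. In none of the 10 did the highest library exceed the lowest over 2-fold, as 20.1% of detected genes did. The median ratio of highest to lowest library was 1.37 over the members and 1.40 over detected genes, and 6 members lay below that median. The largest ratios were those of Tead3 (1.73), Tead2 (1.72) and Yap1 (1.57), and these 3 of 10 members were above 1.5-fold, as were 41.7% of detected genes.

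The members that were high in S52 were the coactivators, Amotl1, Tead2, Tead3 and Tead4. They make 6 of 10 members, beside 33.9% of detected genes that were highest in this library. The other 4 members, Amotl2, Lats2, Lats1 and Tead1, were lowest in S52. The share of detected genes lowest in S52 was not computed. With each library rescaled to a sum of 1000000, Amotl2 was lowest in S44 instead, at 52.4 (S38), 38.5 (S44) and 40.4 (S52). Against S38, the FPKM of Tead2 in S52 was 1.70 times as high, that of Yap1 1.39 times, that of Wwtr1 1.26 times and that of Amotl1 1.26 times. The ratio was 1.22 for Tead3 and 1.10 for Tead4. The scale between libraries bears on this count, which was itself chosen after seeing the data, as were its alternatives. With each library rescaled to a sum of 1000000, Wwtr1, Yap1, Amotl1 and Tead2 were highest in S52 (4 of 10 members, beside 20.5% of detected genes). With scaling by the median ratio the count was again 6 of 10, beside 35.5%.

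S52 also stood apart in transcripts of other cell types. The 4 platelet markers summed to 1692 (S38), 1345 (S44) and 37.96 FPKM (S52). The 5 markers of alveolar type 2 cells summed to 3839, 3218 and 766 FPKM, and the 5 airway markers to 2777, 2309 and 403 FPKM. The 6 leukocyte markers summed to 1078, 818 and 186 FPKM, and each of these sums was lowest in S52. Sftpc made up most of the alveolar type 2 sum, at 3333, 2862 and 658 FPKM. Scgb1a1, at 2669, 2212.5 and 378 FPKM, made up most of the airway sum. Most of the leukocyte sum came from Lyz2, at 1047, 780 and 166 FPKM. The 10 endothelial markers summed to 6369 (S38), 7058 (S44) and 6291 FPKM (S52), and all 10 were at 10 FPKM or above in mean. Single endothelial markers differed in direction. Of the 10, 3 were highest in S52, namely Emcn, Egfl7 and Erg, the last at 59.2, 43.1 and 84.8 FPKM. Another 3 were lowest in S52, namely Cldn5, Esam and Kdr, the last at 380, 360 and 237 FPKM. Among lung cell types that also use YAP and TAZ, the 5 mural markers summed to 202, 120 and 184 FPKM and the 4 fibroblast markers to 74.3, 60.2 and 45.8 FPKM. Single markers of these lists went the other way. Like the 6 members, 2 of the 5 mural markers were highest in S52, namely Pdgfrb, at 6.47, 4.80 and 10.1 FPKM, and Cspg4. So were 2 of the 4 fibroblast markers, Pdgfra, at 7.13, 5.86 and 7.72 FPKM, and Tcf21, almost level at 13.1, 13.5 and 13.6 FPKM. Each mural marker was lowest in S44, which was also the lowest library of those 6 members, and 0 were lowest in S52. Of the fibroblast markers, 2 were lowest in S52. The 5 alveolar type 1 markers summed to 349, 374 and 275 FPKM, mostly from Hopx at 294, 332 and 201 FPKM. Of these 5 markers 3 were highest in S52, namely Ager, at 43.3, 33.4 and 66.0 FPKM, Rtkn2, at 0.851, 0.149 and 3.07 FPKM, and Akap5, at 0.718, 0.462 and 2.15 FPKM. All markers of the platelet, alveolar type 2, airway and leukocyte lists were lowest in S52. The 4 mesothelial markers summed to 13.9, 14.0 and 10.1 FPKM, mostly from Krt19 at 11.9, 8.19 and 10.1 FPKM. Of the others, Msln and Upk3b were listed at 0 in S52 and Wt1 at 0 in S44 and S52. The part of these cell types in the values of the members was not tested.

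**Figure D4:**
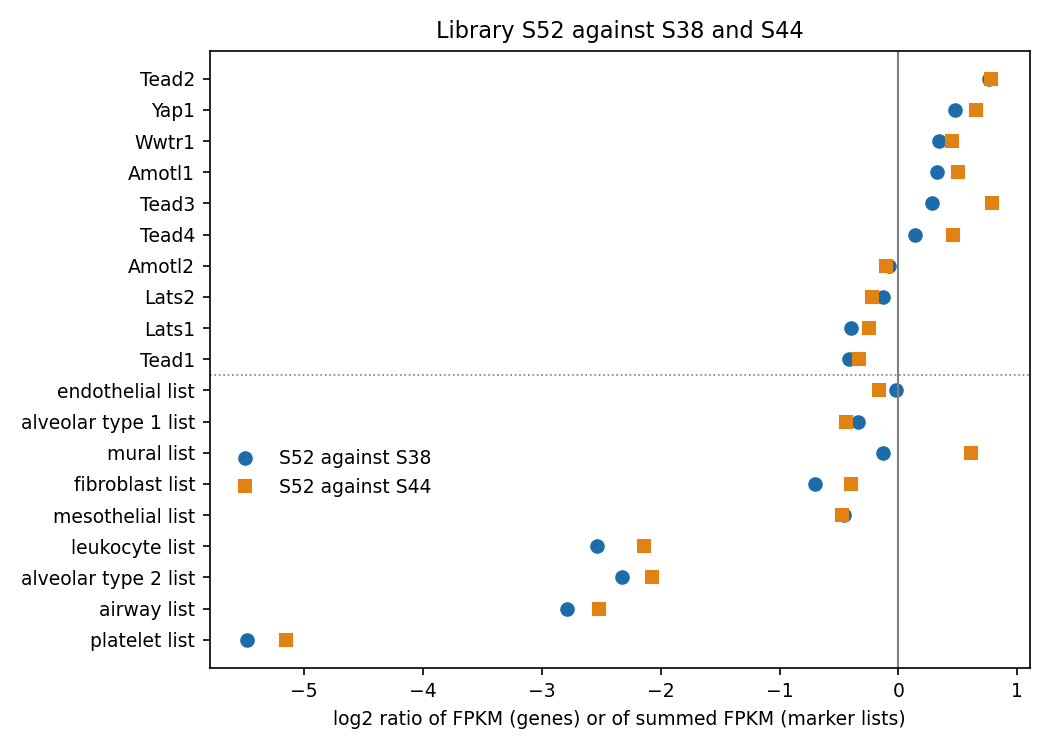
log2 ratio of S52 to S38 (circles) and to S44 (squares), for the FPKM of each member and for the summed FPKM of 9 lists of cell type markers under the dotted line. Platelet, airway, alveolar type 2 and leukocyte lists lie far to the left of 0, the members lie close to it, and 6 members lie to its right.

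Markers of the labelled cell type were high. Pecam1, the CD31 gene used for the sort, had a mean of 1168 FPKM and Cdh5, which encodes VE-cadherin, of 921 FPKM, while Pdpn, which encodes Podoplanin, had a mean of 2.44 FPKM. Ptprc, which encodes CD45, was at 4.30 (S38), 2.06 (S44) and 0.434 FPKM (S52). The epithelial genes Sftpc and Scgb1a1 had means of 2284 and 1753 FPKM, above the mean of every endothelial marker listed, although both were below Pecam1 in S52. The 5 lymphatic markers summed to 565, 623 and 414 FPKM, mostly from Lyve1 at 539, 597 and 390 FPKM. Prox1, which defines lymphatic ECs, had a mean of 0.301 FPKM, at 0.132, 0.173 and 0.598 FPKM. Of the 5, Prox1 and Pdpn (2.39, 1.84 and 3.09 FPKM) were highest in S52, and the other 3 were lowest there. Libraries correlated at Pearson r = 0.944 to 0.963 on log2(FPKM + 1) across genes, which are not independent replicates.

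Most other genes of the pathway were expressed as well. Of 78 genes in 6 lists, 71 (91.0%) had a mean of at least 1 FPKM, beside 48.3% of all genes, and 48 a mean of at least 10 FPKM, beside 25.7%, with a median of 15.3 FPKM beside 17.3 FPKM for the members. Among the 71, 10 (14.1%) varied over 2-fold between libraries, beside 20.1% of detected genes, and 12 of the 78 were above Amotl2.

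The kinase list covers MST, MAP4K and TAO kinases, the NDR kinases Stk38 and Stk38l, which are related to LATS, and adaptors, and 16 of its 17 genes were detected. The highest was Sav1, the scaffold of the MST kinases, at 73.9 (S38), 75.8 (S44) and 83.2 FPKM (S52), above Lats2 in each library. Map4k2, a kinase that can act on LATS in parallel to MST, was at 81.9, 74.1 and 51.3 FPKM. Map4k4, of the same family, was at 39.3, 38.1 and 77.6 FPKM. It was over 2-fold higher in S52 than in S44, the direction in which Yap1 and Tead2 also differed. Map4k1 was the lowest gene of the list and was listed at 0 in S52. The MST kinases themselves, named after their values were seen, had means of 44.2 ± 9.85 FPKM for Stk4 (MST1) and 18.2 ± 1.41 FPKM for Stk3 (MST2).

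All 15 junction and membrane regulators were detected, with a median of 8.25 FPKM. The highest were Rassf1, a partner of MST kinases, with a mean of 117 ± 14.1 FPKM, Frmd6, a FERM protein at the membrane, with 42.1 ± 4.69 FPKM, and Wwc2, a KIBRA homologue that binds LATS, with 26.6 ± 4.05 FPKM. The lowest was Wwc1, which encodes KIBRA itself, at 1.42 (S38), 0.899 (S44) and 1.90 FPKM (S52). Wwc2 was above Wwc1 in each library.

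All 9 listed genes of the PP2A and STRIPAK phosphatase complex, which opposes MST kinases, were detected, and none was over 2-fold different between libraries. Ppp2ca, a catalytic subunit, had a mean of 131 ± 7.11 FPKM, Ppp2r1a, a scaffold subunit, of 106 ± 6.72 FPKM, and Strn3, a striatin, of 42.0 ± 1.19 FPKM. The lowest was Strn with 4.51 ± 1.03 FPKM.

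The 14 genes for retention and turnover of YAP and TAZ, which were all detected, were led by Ywha genes, whose proteins hold phosphorylated YAP and TAZ in the cytoplasm. Ywhah was at 360 (S38), 283 (S44) and 127 FPKM (S52), over 2-fold apart and lowest in S52. Ywhaz had a mean of 210.4 ± 4.29 FPKM and Ywhae of 209 ± 28.8 FPKM. Sfn, of the same family and known mainly from epithelia, was at 17.99, 12.0 and 8.70 FPKM, which was also over 2-fold apart and lowest in S52. The lowest gene was Tnks, a tankyrase that promotes turnover of angiomotins, with 7.11 ± 1.33 FPKM.

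Of the 4 VGLL cofactors, which compete with YAP and TAZ for TEAD proteins, Vgll4 was the only gene with a mean of at least 1 FPKM. Vgll4 was at 35.3 (S38), 41.7 (S44) and 44.6 FPKM (S52), with a mean of 40.5 ± 4.74 FPKM, above the summed TEAD genes in each library. Vgll3 was at 1.63, 0.580 and 0.194 FPKM. Vgll1 and Vgll2 were listed at 0 in all 3 libraries.

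Of 20 genes of a YAP target signature, taken from targets known in other cells, 17 were detected and 7 reached 10 FPKM, with a median of 4.92 FPKM. Cyr61 was at 188 (S38), 192 (S44) and 209 FPKM (S52). Ctgf (also named Ccn2), another matricellular target, was at 62.4, 59.5 and 50.6 FPKM, and Crim1 at 35.6, 43.2 and 29.4 FPKM. Cyr61 was highest in S52, as Yap1 and Wwtr1 were, while Ctgf and Crim1 were lowest there. Ankrd1, a muscle-associated target, was at 1.85, 0.287 and 0.183 FPKM, and Fjx1, the lowest, was listed at 0 in S38 and S44 and was at 0.609 FPKM in S52. Cyr61 and Ctgf are also immediate early genes, and 8 genes induced by tissue dissociation summed to 2442 (S38), 3020 (S44) and 2993 FPKM (S52). Atf3, the highest of these 8 by mean, was at 599, 912 and 816 FPKM. Only 2 of the 8 were highest in S52, namely Fos, at 476, 455 and 516 FPKM, and Fosb. The part of dissociation in the levels of the targets was not tested.

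**Figure D5:**
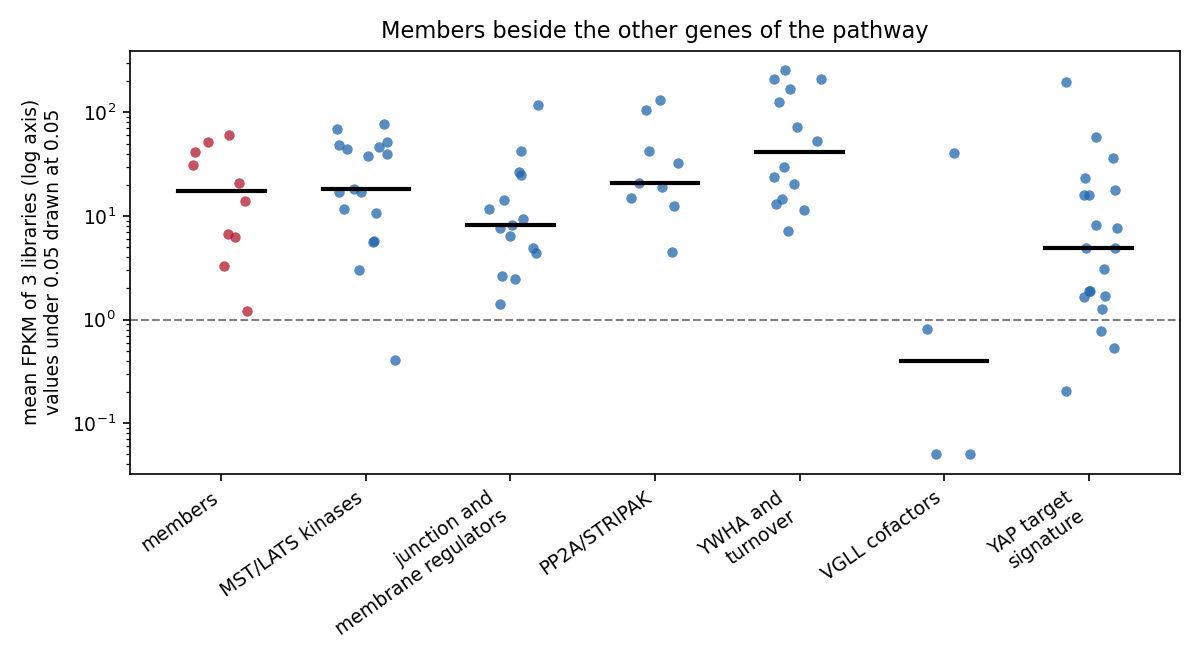
Mean FPKM of 3 libraries (log axis) for the 10 members and for the genes of 6 other lists of the pathway. Each point is a gene, bars are medians, and the dashed line is at 1 FPKM. The median is 17.3 FPKM for the members and runs from 0.401 FPKM for VGLL cofactors to 41.5 FPKM for the genes of retention and turnover.

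The genes whose values over the 3 libraries were nearest to those of Yap1, by Euclidean distance of log2(FPKM + 1), were Gsk3a (distance 0.0558), Ppp4r1 (0.0815) and Taf1d (0.0888). Gsk3a was at 27.5 (S38), 24.4 (S44) and 38.7 FPKM (S52). The genes nearest to Wwtr1 were Lsm14a (0.0728), Ppm1a (0.0784) and Rbbp7 (0.0793). Likeness over 3 libraries of 1 condition reflects the level and the small differences between libraries only.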

How the data were processed

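Expression had been deposited by the authors as FPKM for each gene symbol, on the mm10 genome. The submitters' processing notes name bcl2fastq 2.17, FastQC 0.11.5, Trimmomatic 0.36, TopHat2 2.1.0 and Cufflinks 2.2.1. The study's methods describe another pipeline, with alignment by STAR and counting by HTSeq, and neither source says which made these values. The tool and annotation behind the FPKM values are not given in the sources used here. FPKM divides by a transcript length, so a gene's level depends on the isoforms assumed. Values were used as deposited, without rescaling. Means, SDs and shares were computed on FPKM, and ratios between paralogues on log2(FPKM + 1), a pseudocount of 1, with an exact two-sided sign-flip permutation test and Benjamini-Hochberg adjustment over 6 pairs (higher minus lower paralogue, each other TEAD against Tead1). No count model was fitted.

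Library sums were 1153890, 1603596 and 1419351 FPKM. Depth was estimated, in a way set up once the values had been looked at, as 38000000 (S38), 38900000 (S44) and 33900000 (S52) fragments. It came from the spacing of the low values found among 7077 genes with 1 transcript of 800 to 4000 bases. Low values scored for this numbered 324 (S38), 412 (S44) and 208 (S52), and 74.0% to 78.4% of them were whole fragments to within 0.15. On data simulated from 7077 genes the depth estimate was within 0.0601% of 3 known depths. Fragment numbers computed from these depths cover counting error only.

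Positions are from GENCODE M21 (GRCm38) and promoters from RefSeq (GRCm38.p6). The genes named were all members, in each pathway list the 3 highest genes, the lowest gene and each gene of at least 10 FPKM that varied over 2-fold between libraries, the 3 genes nearest to Yap1 and to Wwtr1, and cell type markers. Amot, Stk3, Stk4, Stk38, Stk38l, Cd37, Ankrd1, Vgll3, Rtkn2, Akap5 and Ager were named outside this rule after their values were seen. So were Pdgfrb, Cspg4, Pdgfra, Tcf21, Lyve1, Prox1, Erg, Emcn, Egfl7, Esam, Kdr, Fos, Fosb and the mesothelial genes. The members and lists were chosen with earlier results of these data known. Alternatives were other scalings, thresholds and pseudocounts, and leaving out each library. Python 3.11.15, numpy 2.4.6, pandas 2.3.3, scipy 1.17.1 and matplotlib 3.10.9 were used. Protein sequences were not analysed here. Another list of the pathway is not reported here.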

Additional observations from a re-analysis of the deposited data

How the results depend on the processing

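Of 121 alternatives to 25 results, 109 kept the result (a level or share within 1 SD, a count within 1.5 times, a ratio with the same sign), 12 moved a value or count and 0 reversed a direction. Many of these alternatives could not have failed. Leaving out 1 of 3 libraries cannot move a mean level or share by 1 SD. No paralogue ratio could change sign, since the same paralogue was higher in 3 of 3 libraries. The tally is therefore no measure of robustness. Rescaling each library to a sum of 1000000 lowered the means to 43.7 for Amotl2, 37.8 for Wwtr1, 30.1 for Lats2, 22.6 for Yap1, 15.2 for Amotl1, 4.91 for Tead4, 4.66 for Lats1 and 0.885 for Tead1, which then lay below 1, and left 3 neighbouring pairs without overlap in place of 5. Since the library sums exceed 1000000, this rescaling lowers every value. A threshold of 10 FPKM in place of 1 left 6 members. In the values as deposited, 1.5-fold in place of 2-fold gave 3 members with a spread over the threshold. Leaving out each library gave 5 to 8 neighbouring pairs without overlap, 8 without S52 (replicate 3), where ranges rest on 2 libraries. Paralogue differences kept their sign in each pair of libraries, as they had to. In such a pair the smallest p of the exact sign-flip permutation test is 0.5. No paired analysis was possible because the 3 libraries form 1 group and no groups could be paired. The paralogue differences were themselves taken within each library. Depth limits Tead1 and Tead3 most, through the few fragments behind their values.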
